A study of Caenorhabditis elegans with 8 samples.

Results

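The Hedgehog-related and patched-related genes of Caenorhabditis elegans were followed across adult age in whole worms. Members were the probes with exactly 1 gene symbol that named a warthog (wrt), groundhog (grd), ground-like (grl), patched (ptc) or patched-related (ptr) gene with a number, or hog-1, qua-1, daf-6 or che-14. The rule used names and no measured value. It gave 88 genes, each with 1 probe, of 26128 genes with a probe of their own on the array: 10 wrt, 16 grd, 31 grl, 3 ptc and 24 ptr genes besides the 4 named singly. All 88 matched RefSeq by Entrez ID with the same symbol, and RefSeq types ptc-2 as a pseudogene.

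Wild-type worms of the N2 Bristol strain were grown at 20 °C on NGM plates seeded with OP50 E. coli and aged with no intervention beyond M9 buffer, per the labels, and all groups share that genotype and culture. Total RNA of a synchronized population was hybridised to each of 8 Affymetrix C. elegans Gene 1.1 ST arrays, with 3 arrays at day 1, 3 at day 6 and 2 at day 12 of adulthood. The labels name the replicates biological and say nothing of separate cultures, so p-values measure the spread between these samples, and precision is limited by how few arrays there are. Values are log2 signals as deposited, the base being inferred from their range, so a difference of 1 is a 2-fold change, and levels of different genes are not compared because each comes from its own probe.

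In flies and vertebrates a Hedgehog ligand binds Patched, a membrane protein with a sterol-sensing domain, and so lifts its block on Smoothened, which leads to Gli transcription factors. C. elegans has no clear Smoothened and no typical Hedgehog, but has large families of secreted proteins with a Hedgehog-like processing domain or related by their other domains, and of Patched-type membrane proteins. Many of them act in epidermis and glia, in cuticle, molting and the matrix that lines body openings, rather than in a classical Hedgehog pathway. In C. elegans, WRT-10 from the epidermis acts on oocyte quality through germline PTC-1 and PTR-2. No sequence is printed because none was in the reference tables used here.

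A day mean under 3, near the low end of a signal that ran from 0.685 to 13.2, was treated as dim, and 53 of the 88 were dim on all 3 days, including hog-1, qua-1, ptc-2 and che-14. That is 60.2% of the members, against 58.5% of all probes tested. The files used here hold no detection calls, so a dim level may be background and a difference from a dim mean may understate the change. This bears on the called members wrt-6, grd-4, grd-5, grd-10, grd-13, grl-7, grl-14, grl-16, ptr-4, ptr-10, ptr-25 and daf-6, each dim on at least 1 day, and no fold is given for them. The other 35 had a day mean of at least 3 on at least 1 day. Array medians were 2.32 to 2.40, and Pearson's r between arrays of 1 day was 0.984 to 0.990 across probes, which are not independent replicates. Day 1 replicate 3 stood apart in these families: in 10 of the 35 brighter members it lay 0.5 or more from both other day 1 arrays, against 3 for replicate 1 and 4 for replicate 2, while over all probes of that brightness the shares were 9.57% for replicate 3, 10.4% for replicate 1 and 6.06% for replicate 2. It was the highest day 1 array in 7 of those 10 members and the lowest in 3. Results that rest on it are given with and without it. The labels name no batch, so a batch that followed age cannot be told apart from it.

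Each comparison was tested with limma over 26761 probes with Benjamini-Hochberg adjustment, and a call is an adjusted p under 0.05. Between day 12 and day 1, 10 members rose and 6 fell, or 11.4% and 6.82% of the 88, against 9.58% and 4.52% of all probes (14.1% called in either direction). Between day 6 and day 1, 3 rose and 3 fell, or 3.41% each, against 2.18% and 1.66% of all probes (3.85% in either direction). From day 6 to day 12, 7 rose and 5 fell, or 7.95% and 5.68%, against 6.36% and 2.69% of all probes (9.05% in either direction). The members were thus called at shares near or somewhat above the background, and the median log2 difference between day 12 and day 1 was 0.10 over the members and -0.01 over all probes. By family, limma called none of the 16 grd genes higher in these 3 comparisons (at an unadjusted p under 0.05, 1 was higher over the whole span, 0 over the first interval and 1 over the second) and none of the 29 patched-related genes lower (4, 1 and 3 at that p, in the same order). Some alternatives did call patched-related genes lower, as given for ptr-2, ptr-14, ptr-20 and ptr-24. A difference in direction between families was not tested. In all, 18 members were called in at least 1 comparison, 3 of them (wrt-10, grd-3 and grd-5) in all 3, and 70 in none.

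**Figure D1:**
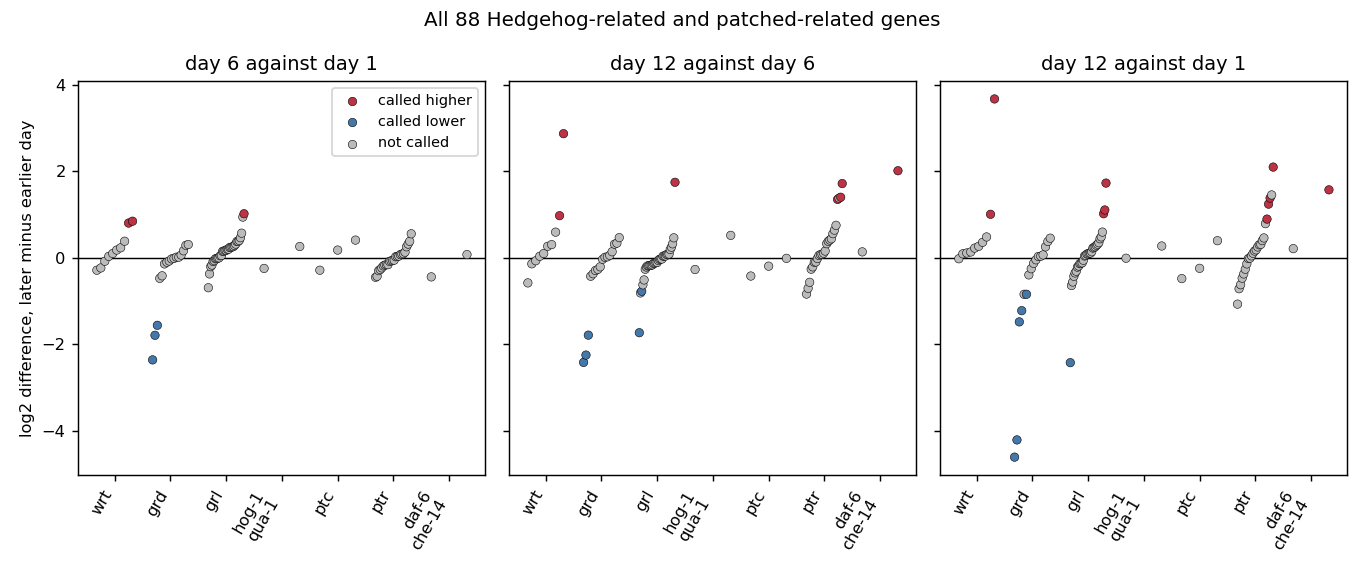
Log2 difference of each of the 88 genes (points, grouped by family along the horizontal axis and sorted within it) for 3 pairs of days, later minus earlier. Red and blue points were called higher and lower by limma at an adjusted p under 0.05. The falls of grd-3 and grd-5 and the late rises of ptr-4 and daf-6 stand away from the grey points. Between day 12 and day 1, uncalled ptr-22 (1.45) lies among the called ptr genes, and uncalled grd-14 beside called grd-13.

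Among the warthog genes, which encode secreted proteins with a Wart domain, 2 of 10 (20%) were called in each comparison, and all of those calls were rises. Of all probes, 9.58% rose between day 12 and day 1. The shares were 2.18% between day 6 and day 1 and 6.36% between day 12 and day 6. The wrt-10 gene rose in both intervals. Its log2 signal was 3.07, 3.23 and 3.38 on the day 1 arrays, 4.11, 4.14 and 3.85 on the day 6 arrays, and 6.70 and 7.12 on the day 12 arrays. The 3 days did not overlap, and every array of a later day lay above every array of an earlier one. Day 12 exceeded day 1 by 3.68 ± 0.18 (SE) on the log2 scale, or 12.8-fold (adjusted p = 2.82e-06), and exceeded day 6 by 2.87 ± 0.18 (adjusted p = 1.37e-05). Day 6 exceeded day 1 by 0.80 ± 0.16 (adjusted p = 0.0263), and this smaller call was lost with any day 6 array or day 1 replicate 1 or 2 left out (adjusted p = 0.0513 to 0.115 over these 5 fits). The second interval's difference exceeded the first by 2.07 ± 0.30 (adjusted p = 0.00437), in a contrast added after the data were seen. That signed contrast, second difference minus first, was called positive for 5 members and negative for 1, against 2.22% and 1.24% of all probes (3.46% in either direction). The wrt-1 gene, which RefSeq places directly beside wrt-10, stayed dim, with day means of 1.90, 2.13 and 1.99 at days 1, 6 and 12.

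The wrt-3 gene peaked at day 6, with 3.99, 4.16 and 4.38 at day 1, 5.09, 4.84 and 5.14 at day 6, and 4.34 and 4.54 at day 12. The day 6 arrays lay above all the others. Its rise at day 6 over day 1 was 0.85 ± 0.16 (adjusted p = 0.0172), a call lost with day 1 replicate 1 or 2 left out (adjusted p = 0.0546 and 0.0525) or day 6 replicate 1 or 3 (0.0835 and 0.073). Day 12 differed from day 6 by -0.58 ± 0.18 and was not called (adjusted p = 0.0732), though it was after quantile or cyclic loess normalization (-0.76 and -0.64, adjusted p = 0.0124 and 0.0319) and with either filter on dim probes (0.0379). The second interval minus the first was -1.43 ± 0.28 (adjusted p = 0.0219), and that call was lost without day 6 replicate 1 or 3 (0.105 and 0.107) or day 12 replicate 1 (0.0625). The wrt-6 gene was dim at day 1 (2.05, 2.33 and 2.04) and day 6 (1.99, 2.33 and 2.19) and had 2.72 and 3.57 at day 12. Both day 12 arrays lay above the rest but apart from each other, and its rise over day 1 of 1.01 ± 0.24 (adjusted p = 0.018) was 0.58 without day 12 replicate 2 (adjusted p = 0.163), and was also lost without day 1 replicate 1 (0.0521). Over day 6 it rose by 0.97 ± 0.24 (adjusted p = 0.0299), a call lost with any day 6 array or day 12 replicate 2 left out (0.0505 to 0.256). The wrt-5 gene, which epidermal development in C. elegans requires, ranged from 5.04 to 6.12 over the 8 arrays and was called in no comparison, with day 12 over day 1 at 0.48 (95% interval -0.01 to 0.98).

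Groundhog genes, which encode secreted proteins with a Ground domain, carried the largest falls measured among the members: 5 of 16 fell between day 12 and day 1, and none rose. The shares were 31.2% lower and 0% higher, against 4.52% and 9.58% of all probes. The grd-3 gene had 7.96, 8.25 and 7.34 at day 1, 4.28, 6.17 and 6.01 at day 6, and 3.33 and 3.14 at day 12. The 3 days formed 3 separate levels, with a wide spread at day 6 (SD 1.05). It averaged 3.23 ± 0.13 at day 12, against 7.85 ± 0.47 at day 1 (SD, n = 2 and 3), a log2 difference of -4.62 ± 0.49 (SE), 24.5-fold lower (adjusted p = 0.000119). Its fall was called within both intervals (-2.36 ± 0.44 for day 6 against day 1, adjusted p = 0.017, and -2.25 ± 0.49 for day 12 against day 6, adjusted p = 0.0154). The call of the first interval was lost without day 1 replicate 1 or 2 (adjusted p = 0.0569 and 0.0603), and that of the second without day 6 replicate 3 (0.0567) or day 12 replicate 1 or 2 (0.0769 and 0.127).

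The grd-5 gene followed a like course, with 7.23, 7.55 and 6.80 at day 1, 4.78, 5.54 and 5.87 at day 6, and 2.18 and 3.77 at day 12. Again the days did not overlap, but the day 12 arrays differed by more than those of either other day (SD 1.13). Day 12 lay below day 1 by a log2 difference of -4.22 ± 0.45 (adjusted p = 0.00012), which was -3.42 without day 12 replicate 1 and -5.01 without day 12 replicate 2. The first interval gave -1.79 ± 0.40 (adjusted p = 0.0362) and the second -2.42 ± 0.45 (adjusted p = 0.00621). The first of these calls was lost without day 1 replicate 1 or 2 (adjusted p = 0.0995 and 0.11) or any day 6 array (0.149, 0.077 and 0.0576 without replicates 1, 2 and 3), and the second without day 12 replicate 1 (-1.62, adjusted p = 0.0509).

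The grd-10 gene, whose promoter is used as a marker of seam cells, the lateral epidermal stem cells of the worm, fell early and stayed low. It had 3.59, 3.84 and 3.58 at day 1, 1.85, 2.39 and 2.07 at day 6, and 2.36 and 2.53 at day 12. All day 1 arrays lay above all later ones, and the later days overlapped each other. The difference was -1.56 ± 0.17 for day 6 against day 1 (adjusted p = 0.00162), -1.22 ± 0.19 for day 12 against day 1 (adjusted p = 0.00133) and 0.34 for day 12 against day 6 (not called, 95% interval -0.08 to 0.75). The second interval's difference minus the first was 1.90 ± 0.30 (adjusted p = 0.00743), positive because the fall lay in the first interval.

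Of the other groundhog genes, grd-4 fell late, with 4.10, 4.67 and 2.96 at day 1, 4.01, 4.16 and 4.49 at day 6, and 2.23 and 2.62 at day 12. Both day 12 arrays lay below all others, the nearest being day 1 replicate 3, and the day 12 mean of 2.43 was dim. The second interval minus the first was -2.10 ± 0.65 and was not called (adjusted p = 0.127). Without day 1 replicate 2 it was called (-2.48, adjusted p = 0.0436). The difference between day 12 and day 6 was -1.79 ± 0.40 (adjusted p = 0.0185) and that between day 12 and day 1 was -1.48 ± 0.40 (adjusted p = 0.0331). The first was lost without day 6 replicate 3 (adjusted p = 0.0664) or day 12 replicate 1 or 2 (0.138 and 0.0812). The second was lost without day 1 replicate 1 or 2 (adjusted p = 0.0912 and 0.0757) or day 12 replicate 1 or 2 (0.204 and 0.103), while without day 1 replicate 3 it was -1.96 (adjusted p = 0.000751). The adjoining grd-14 gene was not called at -0.85 ± 0.42 between day 12 and day 1 (adjusted p = 0.258), and was without day 1 replicate 3 (-1.34 ± 0.27, adjusted p = 0.0102). The dim grd-13 gene had 2.92, 3.34 and 2.41 at day 1 against 2.04 and 2.05 at day 12. Its call (-0.84 ± 0.25, adjusted p = 0.0481) was lost in 12 of 17 alternatives. These were all 7 fits without an array other than day 1 replicate 3, an intensity trend, quantile normalization, all probes, array weights and the 2 days alone. RefSeq lists grd-13, grd-3 and grd-10 side by side. All 3 were called lower at day 12 than at day 1 in the main fit, with courses that differed as described. The calls of grd-3 and grd-10 held in every alternative, unlike that of grd-13. In all, 12 of the 88 genes have another member as direct neighbour in that annotation, and whether each probe separates such a gene from its close copies is not known here.

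Ground-like genes make up the largest family and were mostly dim (25 of 31 on all days). Between day 12 and day 1, 3 rose and 1 fell, or 9.68% and 3.23% of the family, near the 9.58% and 4.52% of all probes. The gene that fell, grl-4, had 6.00, 5.99 and 6.13 at day 1, 5.14, 5.58 and 5.31 at day 6, and 3.37 and 3.84 at day 12. Each day lay below the one before with no overlap. Day 12 lay below day 1 by a log2 difference of -2.43 ± 0.19, 5.38-fold lower (adjusted p = 1.89e-05), and below day 6 by -1.73 ± 0.19 (adjusted p = 0.000272). The difference between day 6 and day 1, -0.69 ± 0.17, had an adjusted p of 0.0552 and was called in 7 of its alternatives (adjusted p = 0.0273 to 0.0477), among them those without day 12 replicate 1 or 2.

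The grl-14 gene was dim at day 1 (2.76, 2.46 and 2.72) and at day 6 (2.42, 2.59 and 2.87), and reached 4.43 and 4.32 at day 12. Days 1 and 6 overlapped and day 12 lay clear of both. Day 12 exceeded day 6 by 1.75 ± 0.18 (adjusted p = 0.000179) and day 1 by 1.73 ± 0.18 (adjusted p = 1e-04). The second interval exceeded the first by 1.77 ± 0.29 (adjusted p = 0.00863, and 0.0518 without day 6 replicate 1). By contrast grl-10 rose early, with 3.57, 3.40 and 3.98 at day 1, 4.67, 4.52 and 4.81 at day 6, and 4.79 and 4.72 at day 12. Its day 6 and day 12 arrays lay together above day 1. The second interval minus the first was -0.93 ± 0.31 and was not called (adjusted p = 0.157). The rise at day 6 over day 1 was 1.02 ± 0.17 (adjusted p = 0.0117, lost without day 6 replicate 1 or 3 at 0.056 and 0.0536), and day 12 differed from day 6 by 0.09 (not called, 95% interval -0.34 to 0.51). The grl-16 gene was low throughout, with 2.05, 2.30 and 1.76 at day 1, 2.98, 2.58 and 3.37 at day 6, and 2.77 and 3.34 at day 12. The later days overlapped each other above day 1. Its call between day 12 and day 1 (1.02 ± 0.26, adjusted p = 0.0267) was lost with day 1 replicate 1 or 3 left out (0.0609 and 0.076) or day 12 replicate 2 (0.73, adjusted p = 0.236). Between day 6 and day 1 it had 0.94 ± 0.24 (adjusted p = 0.0586), which was called without day 6 replicate 2 (1.14, adjusted p = 0.0414), after quantile normalization (0.0439) and with a day mean of at least 3 required (0.0377). The grl-7 gene, whose product is cleared from the C. elegans precuticle with the help of PTR-18, was dim on all days (means 2.23, 2.69 and 1.92). Its call between day 12 and day 6 (-0.78 ± 0.21, adjusted p = 0.0425) was lost in 6 of 8 fits without an array (without day 1 replicate 1, any day 6 array or either day 12 array, adjusted p = 0.0503 to 0.184). The hog-1 gene, whose product has a Hog domain, had 2.56, 2.06 and 1.79 at day 1, 2.02, 1.88 and 1.77 at day 6, and 2.64 and 2.18 at day 12. The qua-1 gene, which C. elegans needs for molting, had 2.05, 2.22 and 2.10 at day 1, 2.36, 2.24 and 2.56 at day 6, and 2.18 and 2.05 at day 12. Both were dim, and day 12 overlapped day 1 in both. Neither was called, with day 12 minus day 1 at 0.27 for hog-1 (95% interval -0.25 to 0.79) and -0.01 for qua-1 (-0.36 to 0.34).

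**Figure D2:**
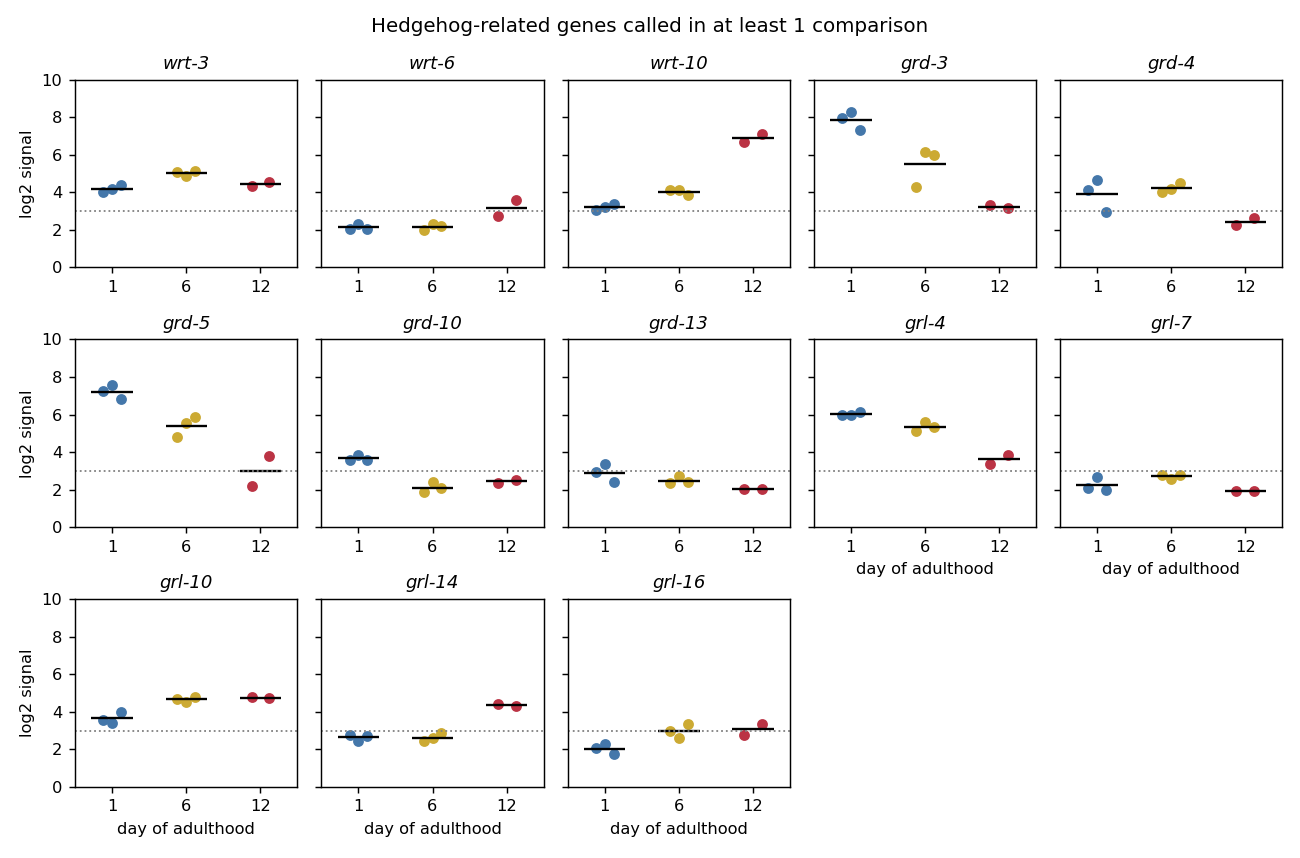
Log2 signal on each array (points) and the mean of each day (horizontal lines) at days 1, 6 and 12 for the 13 Hedgehog-related genes called in at least 1 comparison; the dotted line marks the dim level of 3. The wrt-10 gene reaches 6.70 and 7.12 at day 12, while grd-3, grd-5 and grl-4 descend at each step.

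On the patched side, the PTC proteins are closest to Patched itself. The limma test called none of the 3 genes, and 1 (ptc-1, lower at day 12 than at day 6) had an unadjusted p under 0.05. The ptc-1 gene, which acts in germline cytokinesis in C. elegans, had 8.51, 8.50 and 8.32 at day 1, 8.63, 8.59 and 8.64 at day 6, and 8.48 and 7.92 at day 12. Its days 12 and 1 overlapped, and their difference was -0.24 ± 0.18 (95% interval -0.65 to 0.16, adjusted p = 0.484). The ptc-3 gene, which is essential in C. elegans, had 3.51, 3.50 and 3.85 at day 1, 3.77, 4.08 and 4.23 at day 6, and 4.49 and 3.54 at day 12. The day 12 arrays lay far apart and overlapped both other days, and day 12 minus day 1 was 0.40 ± 0.27 (95% interval -0.20 to 0.99, adjusted p = 0.424). The ptr-2 gene was not called either, with 9.29, 9.07 and 9.11 at day 1, 9.17, 9.23 and 9.36 at day 6, and 8.88 and 8.50 at day 12. Both day 12 arrays lay below all others, by little. Its differences of -0.47 ± 0.17 between day 12 and day 1 (adjusted p = 0.101) and -0.57 ± 0.17 between day 12 and day 6 (adjusted p = 0.0682) were not called, but both were with an intensity trend (adjusted p = 0.0326 and 0.0168) and with either filter on dim probes, and the second was without day 12 replicate 1 (-0.76, adjusted p = 0.0479). Thus wrt-10 was 12.8-fold higher at day 12 than at day 1, while the differences of the PTC-1 and PTR-2 genes lay within 1 on the log2 scale over the same days.

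Some patched-related genes rose late. Between day 12 and day 1, 4 of 24 ptr genes and daf-6 were called higher, or 17.2% of the 29 patched-related genes, against 9.58% of all probes. Between day 6 and day 1 limma called none of the 29, and 1 (daf-6) had an unadjusted p under 0.05. Few probes of the whole array were called over those days (3.85%). The ptr-4 gene, required in C. elegans to organize the precuticle, had 2.22, 2.02 and 2.58 at day 1, 2.47, 2.67 and 2.83 at day 6, and 4.60 and 4.14 at day 12. Only day 12 stood clear of the dim level. Day 12 exceeded day 1 by 2.10 ± 0.21 (adjusted p = 9.29e-05) and day 6 by 1.72 ± 0.21 (adjusted p = 0.00055). The second interval minus the first was 1.34 ± 0.34 and was not called (adjusted p = 0.0682). It was called with a day mean of at least 3 required (0.0418).

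The daf-6 gene acts in glia and limits the width of the channels around sensory endings. It had 2.14, 2.01 and 2.72 at day 1, 1.84, 1.88 and 1.83 at day 6, and 3.93 and 3.80 at day 12. All day 6 arrays lay below all day 1 arrays, and both day 12 arrays above every other. Day 12 exceeded day 6 by 2.02 ± 0.21 (adjusted p = 0.000188) and day 1 by 1.57 ± 0.21 (adjusted p = 0.000521). The second interval exceeded the first by 2.46 ± 0.33 (adjusted p = 0.00338). The che-14 gene, related to Dispatched and, like daf-6, needed for the sensory channels, had 2.15, 2.17 and 1.94 at day 1, 1.89, 2.32 and 2.27 at day 6, and 2.43 and 2.16 at day 12. It was dim, its days overlapped, and day 12 minus day 1 was 0.21 (95% interval -0.19 to 0.62).

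The ptr-25 gene had 2.71, 2.97 and 2.58 at day 1, 2.68, 2.56 and 2.54 at day 6, and 3.97 and 4.02 at day 12. Its day 12 arrays nearly coincided, above all others. Day 12 exceeded day 6 by 1.40 ± 0.16 (adjusted p = 0.000355) and day 1 by 1.24 ± 0.16 (adjusted p = 0.000461). The 2 intervals differed by 1.56 ± 0.26 (adjusted p = 0.00938, and 0.0548 without day 6 replicate 3). The ptr-10 gene, whose promoter is widely used to mark C. elegans glia, had 2.15, 1.80 and 1.61 at day 1, 1.96, 1.77 and 1.93 at day 6, and 3.90 and 2.58 at day 12. The first day 12 array carried most of the rise. For this gene the second interval minus the first was 1.32 ± 0.52 and was not called (adjusted p = 0.242). Its difference between day 12 and day 1 was 1.38 ± 0.32 (adjusted p = 0.0159), and fell short of a call once day 12 replicate 1 was left out (0.72, 0.0987). Between day 12 and day 6 it was 1.35 ± 0.32 (adjusted p = 0.0253), a call lost without day 12 replicate 1 (0.69, adjusted p = 0.142) or any day 6 array (0.059, 0.0757 and 0.0652 without replicates 1, 2 and 3).

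The ptr-23 gene, which acts in the osmotic stress response of C. elegans downstream of OSM-8, was well above the dim level, with 5.03, 4.76 and 5.17 at day 1, 5.16, 5.13 and 5.43 at day 6, and 6.18 and 5.58 at day 12. The day 12 arrays lay above all others. Its difference of 0.90 ± 0.21 between day 12 and day 1 (adjusted p = 0.0166) was not called without day 1 replicate 2 (0.78, adjusted p = 0.0537) or day 12 replicate 1 (0.60, adjusted p = 0.157). Day 12 minus day 6 was 0.64 ± 0.21 (adjusted p = 0.102).

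The results for ptr-22 and ptr-8 depended on day 1 replicate 3 and, between day 12 and day 1, also on the model. With the replicate number as a block and all arrays kept, limma called both higher (1.89 and 1.02, adjusted p = 0.0362 and 0.0483). The ptr-22 gene had 3.02, 2.81 and 5.35 at day 1, 3.72, 3.77 and 3.91 at day 6, and 5.56 and 4.81 at day 12. Day 1 replicate 3 lay among the day 12 arrays and the other day 1 arrays below day 6. In the main fit, with all arrays, day 12 minus day 1 was 1.45 ± 0.61 (adjusted p = 0.169). It became 2.27 ± 0.24 once day 1 replicate 3 was left out (adjusted p = 0.000266). The ptr-8 gene had 3.96, 3.99 and 5.24 at day 1, 4.48, 4.33 and 4.50 at day 6, and 5.23 and 5.14 at day 12. Its day 1 replicate 3 likewise sat at the day 12 level. Day 12 minus day 1 was 0.79 ± 0.33 (adjusted p = 0.165), and 1.21 ± 0.16 without that array (adjusted p = 0.000917). For both genes day 12 minus day 6, a difference that does not use day 1, was also called only once that array left the shared spread (ptr-22 1.38, adjusted p = 0.00355, against 0.241 with it; ptr-8 0.75, adjusted p = 0.0105, against 0.236) or when the arrays of the 2 days were fitted alone (0.00765 for ptr-22 and 0.0161 for ptr-8). The ptr-14 gene (4.36, 3.58 and 5.46 at day 1, against 3.54 and 3.24 at day 12) had a wide day 1 too. Its difference of -1.07 ± 0.42 (adjusted p = 0.137) was called with day 1 replicate 2 left out (-1.51, adjusted p = 0.0153), and was -0.58 with replicate 3 left out (0.225). Its day 12 minus day 6, -0.84, was called when those 2 days were fitted alone (adjusted p = 0.0262).

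**Figure D3:**
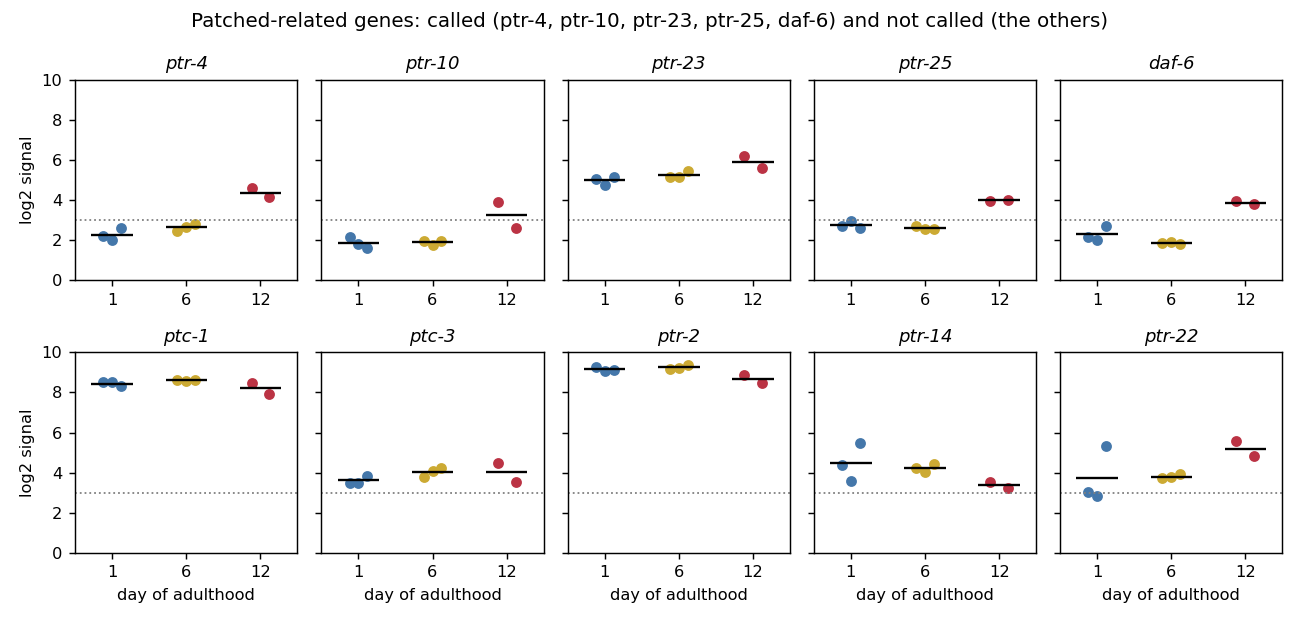
Log2 signal on each array (points) and day means (horizontal lines) at days 1, 6 and 12 for the 5 called patched-related genes (top row) and 5 that were not called (bottom row); the dotted line marks the dim level of 3. The called genes separate at day 12, ptc-1 and ptr-2 stay between 7.92 and 9.36, and 1 day 1 array of ptr-22 lies at 5.35.

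The remaining members gave no call. Of them, 51 were dim on all days, with array values from 1.26 to 3.56 and differences between -0.63 and 0.59 in the 3 comparisons. The 19 brighter ones had differences from -1.07 (ptr-14) to 1.45 (ptr-22). Among these ptr-20 came near a call, with means of 3.23 ± 0.11 at day 1, 3.32 ± 0.31 at day 6 and 2.61 ± 0.25 at day 12 (SD). Its day 12 minus day 6 was -0.71 ± 0.20 (adjusted p = 0.0587), called after quantile (-0.82, adjusted p = 0.0332) and cyclic loess normalization (-0.88, adjusted p = 0.025), with either filter on dim probes (0.0339 and 0.0345) and with day 6 replicate 2 left out (-0.88, 0.025). Its day 12 minus day 1 was -0.62 ± 0.20 (adjusted p = 0.0726), called lower under the same 5 alternatives (0.0287 to 0.0485). The grl-28 gene had -0.81 ± 0.23 between day 12 and day 6 (adjusted p = 0.0524). It was called there in 5 of its alternatives (adjusted p = 0.0312 to 0.0465), among them those without day 1 replicate 3 or day 6 replicate 1. The ptr-24 gene was called lower at day 12 than at day 1 only without day 1 replicate 2 (-1.02, adjusted p = 0.00778, against -0.72 and 0.129 with all arrays).

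**Figure D4:**
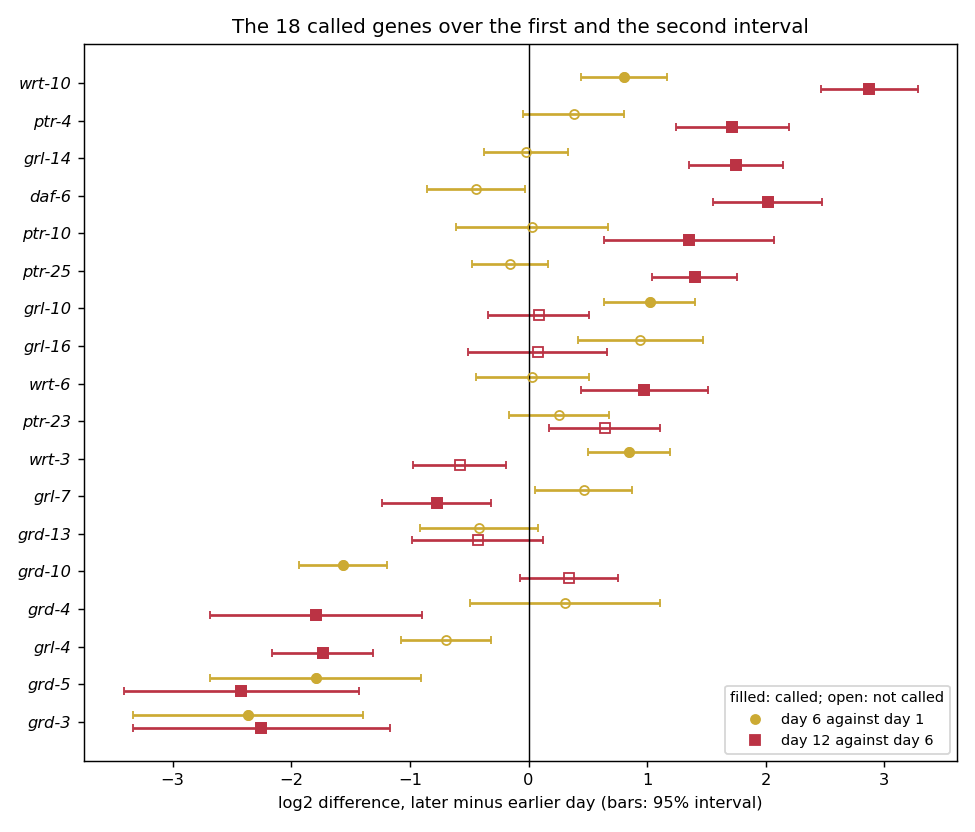
Log2 difference of the 18 called genes in the first interval (day 6 against day 1, circles) and the second (day 12 against day 6, squares) with 95% intervals from limma; filled symbols were called. The rises of ptr-4, grl-14, daf-6, ptr-10 and ptr-25 were called in the second interval only. The fall of grd-10 was called in the first only, and those of grd-3 and grd-5 in both. The contrast between the intervals was called for grl-14, daf-6, ptr-25 and grd-10, and not for ptr-4 or ptr-10.

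Calls were also counted among genes tied to Hedgehog signalling or sterol handling outside these families. Of 16 on the list, 1 rose (6.25%) and none fell between day 12 and day 1, against 9.58% and 4.52% of all probes. Between day 6 and day 1 limma called none (3 had an unadjusted p under 0.05), against 3.85% of all probes. Between day 12 and day 6, 2 rose (12.5%), against 6.36% of all probes. A departure from these background shares was not tested. The lrp-1 gene, a megalin-like uptake receptor needed for molting, exceeded its day 1 level by 0.86 ± 0.19 at day 12 (adjusted p = 0.0121). The NPC1-type gene ncr-1 had a mean of 4.32 at day 12, against 3.39 at day 6 (adjusted p = 0.0117). The Gli homologue tra-1 had day means of 8.63, 8.68 and 8.48 at days 1, 6 and 12, and day 12 minus day 1 was -0.15 ± 0.20 (adjusted p = 0.715).

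Some genes of other lists also rose between day 12 and day 1. Of 22 molting and precuticle genes measured (of 24), 11 rose by limma between day 12 and day 1 (50%, against 9.58% of all probes). None fell, though 2 were lower at an unadjusted p under 0.05. Of the 22, 8 were dim on all days, among them 1 of the 11 that rose. Between day 6 and day 1, 1 rose and 1 fell (4.55% each, against 2.18% and 1.66% of all probes). The rises between day 12 and day 1 were led by lpr-3 (3.88 ± 0.22), noah-1 (3.73 ± 0.23), noah-2 (3.60 ± 0.16) and fbn-1 (3.38 ± 0.19), matrix proteins of the epidermal surface. Of 14 transcription factors of molting and epidermis 6 rose by limma (42.9%), including nhr-25 (3.19 ± 0.24). None of them fell, and none was lower at an unadjusted p under 0.05. Summed linear signal of the 8 seam markers, on the log2 scale, was 7.24 to 7.65 at day 1, at least 7.90 at day 6 and 8.68 to 8.78 at day 12, with elt-1, ceh-16, egl-18 and elt-6 higher at day 12 than at day 1 and nhr-73, nhr-74, rnt-1 and bro-1 dim. That of the 12 glial markers was 9.46 to 9.72, 9.74 to 9.82 and 9.98 to 10.13 on the same days, with 2 (vab-3 and mls-2) higher and 1 (vap-1) lower at day 12 than at day 1, and delm-1, delm-2, ram-5 and hlh-17 dim. The brightest glial marker, lin-26, had means of 9.67 at day 12 and 9.21 at day 1 and was not called (adjusted p = 0.0762), and it stands on the hypodermis and transcription factor lists too. Other genes also stand on more than 1 of these lists.

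Embryonic markers, of which 14 of 15 were measured, summed to 9.11 to 9.25 at day 1, 9.40 to 9.57 at day 6 and 9.71 to 9.74 at day 12. The hatching enzyme gene hch-1 (mean 7.84 at day 12, against 2.84 at day 1), tbx-8, tbx-37, tbx-38 and sdz-38 rose between day 12 and day 1, with none called lower by limma (none at an unadjusted p under 0.05 either). Between day 12 and day 6, tbx-9 fell by 0.66 on the log2 scale (adjusted p = 0.0339), and over all days end-1, end-3, med-1, vab-7, pes-1 and sdz-38 were dim. The 10 hypodermis markers summed to 11.19 to 11.99 at day 1, 10.03 to 11.06 at day 6 and 9.77 to 9.97 at day 12, with col-19 and col-140 lower at day 12 than at day 1, dpy-7 higher, and dpy-7, rol-6, col-10 and bli-1 dim. Markers of intestine (7 of 8 measured) summed to 10.89 to 11.45, 9.29 to 9.88 and 8.08 to 8.23 on the same days, and those of muscle (7) to 12.39 to 12.79, 10.41 to 11.56 and 8.91 to 9.08. Of these, 6 of 7 intestine and 7 of 7 muscle markers fell between day 12 and day 1, as did 5 of the 16 groundhog genes, against 4.52% of all probes. Pharynx markers (6) summed to 7.88 to 8.46, 6.47 to 7.36 and 6.24 to 6.86 on the 3 days, with 2 lower and 1 higher at day 12 than at day 1, and neuron markers (6) to 10.28 to 10.46, 10.44 to 10.53 and 10.89 to 10.93, with 2 higher. Germline and oocyte markers (10) summed to 13.21 to 13.28 at day 1, 13.38 to 13.39 at day 6 and 12.69 to 13.02 at day 12. Of these 10, 1 was called higher and 1 lower at day 12 than at day 1. Between day 12 and day 6, limma called 0 higher and 2 lower (0 and 8 at an unadjusted p under 0.05). That is 0% and 20%, against 6.36% and 2.69% of all probes. The part of these tissues, or of embryos held in the worms, in the results above was not tested, and in RNA of whole animals fewer cells of a type and less RNA per cell cannot be told apart.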

How the data were processed

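The authors deposited 1 table of log2 signals, 29317 probes by 8 arrays. The log base was inferred from the range of the values, and the sources used here do not name the software, background correction or normalization. No detection calls came with it. A platform probe table gave exactly 1 symbol to 26281 probes, several to 480 and none to 2556. The 26761 probes with a symbol were fitted in R 4.3.3 with limma 3.58.1 (lmFit, eBayes with defaults, two-sided), with a mean per day over all 8 arrays (5 residual and 5.07 prior degrees of freedom), with Benjamini-Hochberg adjustment across every probe fitted. Every member may be named; array values are given for called members with a day mean of at least 3 and for ptc-1, ptc-3, daf-6, che-14, hog-1 and qua-1, and grd-13, ptr-2, ptr-8, ptr-14 and ptr-22 were added after their values were seen. RefSeq (WBcel235) served for symbols and neighbours only. Members and lists were chosen with earlier results of these data known. The contrast between the intervals was added after the data were seen. Simulated data were used to check the same code. Alternatives were an intensity trend with robust variances, quantile, median and cyclic loess scaling, filters on dim probes, all probes, array weights, a replicate block, averaged probes, the 2 days alone and each array left out.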

Additional observations from a re-analysis of the deposited data

How the results depend on the processing

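No called difference of a named gene changed direction in any alternative. Between day 12 and day 1, 10 of 16 calls held in every alternative (wrt-10, grd-3, grd-5, grd-10, grl-4, grl-10, grl-14, ptr-4, ptr-25 and daf-6), against 1 of 6 between day 6 and day 1 (grd-10) and 6 of 12 between day 12 and day 6 (wrt-10, grl-4, grl-14, ptr-4, ptr-25 and daf-6). With only probes of a mean of at least 3 tested, which leaves fewer members, 5 rose between day 12 and day 1 and 3 between day 12 and day 6, 3 had a positive contrast of second minus first interval, and 1557 probes were called between day 6 and day 1. Members lower at day 12 than at day 6 numbered 8 with cyclic loess and 8 with a day mean of at least 3 required. With an array left out, between day 12 and day 1, 8 to 11 rose, 4 to 7 fell and 2454 to 3519 probes were called (3773 with all). Between day 6 and day 1 these were 0 to 3, 1 to 4 and 281 to 937 (1029 with all), and between day 12 and day 6, 5 to 9, 2 to 6 and 1371 to 2568 (2423 with all). The signed contrast of second minus first interval was positive for 4 to 6 members and negative for 0 to 3. Where a day 12 array is left out, the lone one is assumed to vary like the other days. Deviations of arrays from their day means had correlations of -0.114 to 0.112 over 7 same-numbered pairs and -0.112 to 0.106 over the 14 others. The 2 day 12 arrays deviate by equal and opposite amounts, so these ranges are partly forced to match. They cannot settle whether same-numbered arrays were paired. With the replicate number as a block, 12 rose and 6 fell between day 12 and day 1, 3 and 3 between day 6 and day 1, and 7 and 4 between day 12 and day 6, and 0 members had a negative contrast. The block lost grl-16 between day 12 and day 1, grl-7 between day 12 and day 6 and wrt-3 between the intervals, and added ptr-8, ptr-11 and ptr-22 between day 12 and day 1. The cause of these shifts was not tested beyond the fewer probes or arrays. Low signal limits the 53 dim members, whose differences may go undetected at this precision.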
